A study of Mus musculus with 6 samples.

Results

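Guanylate-binding proteins are large GTPases of the dynamin superfamily that cells make when interferon reaches them. This family was read here as 9 mouse genes, Gbp2 to Gbp10, taken by gene symbol from 38896 symbols in the deposited table, with the transcripts of each symbol summed. The members were chosen by their measured difference between DSS and control in these libraries, so their DSS and control values are given as a description. Calls and fitted changes of members come from the fit across all genes and support nothing about them. RNA came from cultured fibroblasts of the distal colon of mice aged 6 weeks, grown for 2 passages and then kept for 24 h in conditioned medium. The 3 libraries labelled DSS are read here as cells in inflammatory medium and the 3 control libraries as cells in control medium. DSS usually stands for dextran sulfate sodium, a chemical that induces colitis in mice, and the sources used here do not say how that medium was prepared. Mice 1716, 1717 and 1718 each gave 1 DSS and 1 control culture, so the groups are paired by animal. The labels give DSS under a genotype tag, so its reading as a medium rests on the study's design text. They name no strain, allele or transgene for any library.

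Interferon-gamma binds a receptor that works through the kinases JAK1 and JAK2, and its targets carry gamma-activated sites (GAS). The factor IRF1, itself made in response, binds interferon-stimulated response elements (ISRE), and genes of this family are textbook targets of the pathway. The proteins assemble as coats on vacuoles that hold microbes and on bacteria in the cytosol, and can open the way to inflammasome activation and pyroptosis. Immunity-related GTPases and proteins that conjugate ATG8 to membranes guide them to those vacuoles. Several members, Gbp2 and Gbp5 among them, end in a CaaX box, a motif to which a lipid is attached so that the protein can hold on to membranes. In fibroblasts the family is a marker of a response to interferon.

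The 9 genes lie in a pair of clusters on GRCm38. Gbp5, Gbp7, Gbp3 and Gbp2 stand in that order on the plus strand of chromosome 3, in a cluster of 5 genes at chr3:142496934-142638008 (141.1 kb) that also holds Gbp2b. Gbp8, Gbp9, Gbp4, Gbp10 and Gbp6 stand on the minus strand of chromosome 5, in a cluster of 6 genes at chr5:105012513-105346476 (334 kb) that ends with the transcribed pseudogene Gbp11. Promoters are shown for the members with an entry in the RefSeq promoter table. They are from build GRCm38.p6, plus strand, and run from 250 bases before the start to 50 after it. Entries were found for 4 of 9 members, Gbp2, Gbp3, Gbp5 and Gbp7, and none for Gbp4, Gbp6, Gbp8, Gbp9 and Gbp10. Capitals mark an ISRE match (GAAA and GAAA with 2 bases between them, on either strand) or a GAS match (TTCNNNGAA, which reads the same on both strands).
Gbp2 promoter, chr3:142620413-142620712: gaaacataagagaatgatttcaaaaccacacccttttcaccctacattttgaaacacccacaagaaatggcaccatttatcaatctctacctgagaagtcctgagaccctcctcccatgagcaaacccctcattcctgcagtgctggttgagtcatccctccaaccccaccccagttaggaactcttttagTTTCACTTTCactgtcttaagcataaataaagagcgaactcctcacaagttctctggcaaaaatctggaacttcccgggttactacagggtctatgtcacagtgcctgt
Gbp3 promoter, chr3:142559794-142560093: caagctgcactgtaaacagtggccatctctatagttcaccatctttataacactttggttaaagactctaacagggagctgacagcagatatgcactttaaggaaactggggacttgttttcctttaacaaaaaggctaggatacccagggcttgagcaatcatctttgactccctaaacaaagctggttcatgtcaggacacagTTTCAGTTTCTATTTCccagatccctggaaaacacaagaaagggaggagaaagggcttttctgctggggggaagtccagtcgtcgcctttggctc
Gbp5 promoter, chr3:142496684-142496983: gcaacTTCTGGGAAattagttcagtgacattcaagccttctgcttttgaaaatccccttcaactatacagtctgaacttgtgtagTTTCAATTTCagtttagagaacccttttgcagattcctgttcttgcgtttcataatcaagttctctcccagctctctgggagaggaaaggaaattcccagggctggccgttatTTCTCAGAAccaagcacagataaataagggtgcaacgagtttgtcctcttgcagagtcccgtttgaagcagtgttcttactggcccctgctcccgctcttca
Gbp7 promoter, chr3:142530086-142530385: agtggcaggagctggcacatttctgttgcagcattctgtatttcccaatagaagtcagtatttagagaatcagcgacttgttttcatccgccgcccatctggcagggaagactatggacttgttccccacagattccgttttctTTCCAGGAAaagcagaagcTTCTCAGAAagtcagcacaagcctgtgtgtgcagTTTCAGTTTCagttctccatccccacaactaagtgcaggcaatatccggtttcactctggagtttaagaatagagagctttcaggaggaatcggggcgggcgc

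An ISRE match stood in each of these 4 windows. It began 59 bases before the start in Gbp2, 53 in Gbp7 and 165 in Gbp5, while Gbp3 had overlapping matches that began 45 and 39 bases before it. Gbp3 has a further entry that lies downstream, and that window held no ISRE match. GAS matches stood in Gbp5, 245 and 52 bases before the start, and in Gbp7, 106 and 87 bases before it, and none stood in the windows of Gbp2 and Gbp3. The Gbp2b window, at chr3:142594597-142594896, held an ISRE match 137 bases before the start and no GAS match. A match to the kappaB motif stood 77 bases before the start in Gbp5 and 8 bases after it in Gbp2, without overlap with the others. Of all 32851 promoters of the same length, 3.44% held an ISRE match, 8.3% a GAS match, 8.46% a kappaB match and 0.454% both an ISRE and a GAS match. A match describes these letters and is not evidence of a bound site.

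Every member was higher in every DSS library than in every control library. Summed over the 9 genes, the family held 2733, 429 and 2307 CPM (counts scaled to a common library size) in DSS libraries of mice 1716, 1717 and 1718, against 94.6, 96.4 and 110.9 CPM in control libraries. The DSS mean was 1823 ± 1226 CPM and the control mean 100.65 ± 8.96 CPM (SD, n = 3 each). Within mice the summed level was 28.9, 4.45 and 20.8 times that of the control, a mean log2 difference of 3.79 ± 1.44 (SD, n = 3 mice). The groups did not overlap, and the DSS library of mouse 1717 lay between the control libraries and the other DSS libraries. In bulk RNA, fewer cells of a type and less RNA per cell cannot be told apart.

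Of the 9 members, 8 passed the filter on low counts, and all 8 were among the genes that edgeR's fit called higher in DSS, which the choice of members fixed. Of the 19869 genes tested, 7.37% were called higher and 5.91% lower. Each of these 8 had every DSS library above every control library, a pattern that 17.8% of all genes tested showed. Gbp10 showed the same order of libraries but did not pass the filter and was not tested there. Nothing is read from these counts. No member passed with mouse 1718 left out (8 of 8 had an unadjusted p under 0.05 by edgeR, the tool used there). With mouse 1716 left out 4 passed. These fits, like the main one, had group as the only term and did not use the pairing.

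**Figure D1:**
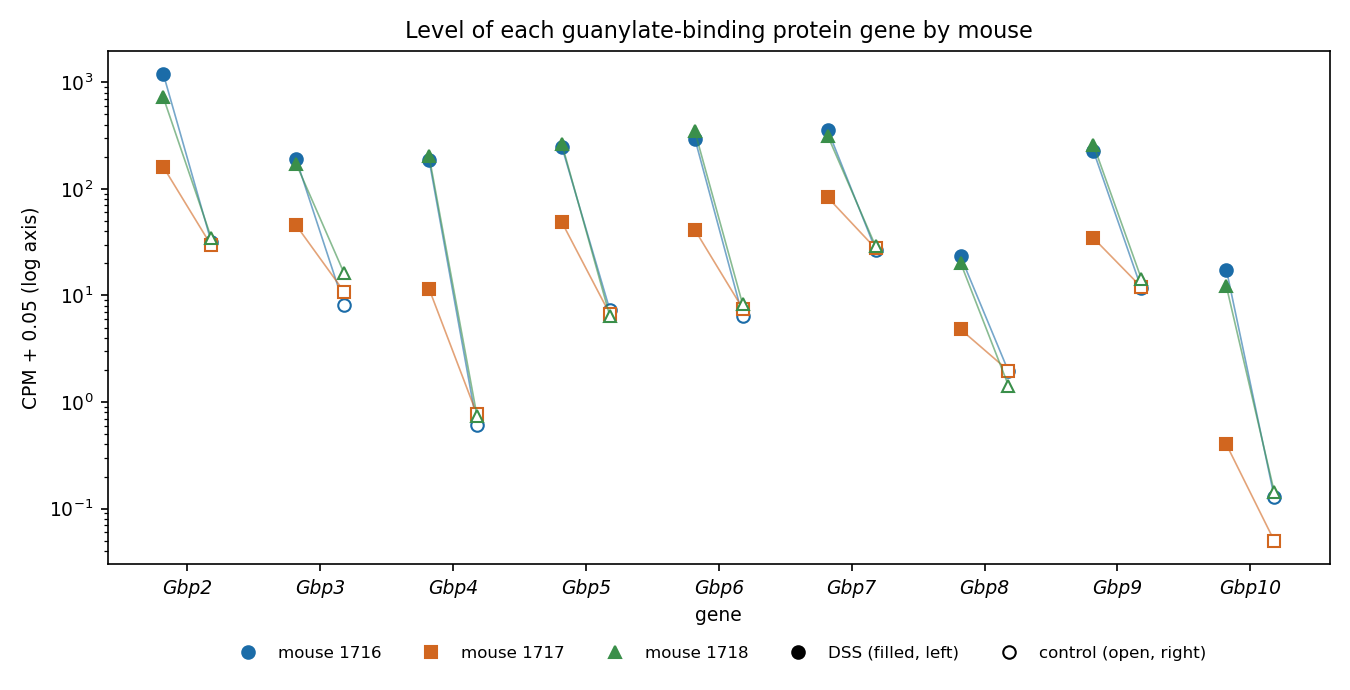
Level of each of the 9 genes in CPM plus 0.05, on a log axis, in DSS libraries (filled, left) and control libraries (open, right), with lines joining the libraries of a mouse. For each gene the 3 DSS points lie above the 3 control points, and mouse 1717 has the lowest DSS point.

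Of the chromosome 3 members, Gbp2 was the most abundant in counts in each DSS library. This gene, Entrez ID 14469 at chr3:142620663-142638008, encodes a protein that coats Toxoplasma vacuoles and cytosolic bacteria in mouse cells. Gbp2 held 1193, 160.2 and 719.6 CPM in DSS libraries of mice 1716, 1717 and 1718, against 31.9, 29.4 and 34.9 CPM in control libraries. Control libraries varied 1.18-fold between the lowest and the highest, and DSS libraries 7.44-fold. The fitted log2 fold change was 4.43 ± 0.67 (SE), and within mice the fold was 37.4, 5.45 and 20.7.

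Gbp5 (229898, chr3:142496934-142522344) encodes a prenylated member that has been linked to NLRP3 and AIM2 inflammasome activation in mouse macrophages. It held 246, 48.3 and 262 CPM in DSS libraries, against 7.28, 6.64 and 6.37 CPM in control libraries. Its folds within mice were 33.7, 7.27 and 41.1, and in mouse 1717 only Gbp4 had a higher one among the 8 members in the fit. The fitted log2 fold change of Gbp5 was 4.77 ± 0.63 (SE).

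Gbp7 (229900, chr3:142530336-142550151), linked in mice to oxidase assembly on microbial vacuoles, was next to Gbp2 the most abundant in control libraries by counts. It held 357, 82.9 and 314 CPM in DSS libraries, against 26.8, 27.5 and 28.9 CPM in control libraries. Its control values had the narrowest spread of the 8 members in the fit, at 1.08-fold. Its fitted log2 fold change of 3.18 ± 0.49 (SE) was the lowest, with that of Gbp8 close by at 3.21 ± 0.58 (SE). Within mice, the fold of Gbp7 was below that of Gbp8 in mouse 1718 alone. Gbp3 (55932, chr3:142560016-142573213), which also gathers at Toxoplasma vacuoles in mouse cells, held 189, 45.3 and 172 CPM in DSS libraries, against 8.12, 10.8 and 16.1 CPM in control libraries. Its control libraries differed 1.99-fold, the widest spread of the 8, and its fitted log2 fold change was 3.54 ± 0.55 (SE).

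Of the chromosome 5 members in the fit, Gbp4 had the largest fitted fold. Gbp10 was not in the fit, and the intervals of the count ratios of Gbp4 and Gbp10, given below, overlap. Gbp4 (17472, chr5:105115767-105139586), reported in mouse cells to act on IRF7 and so on type I interferon, held 186, 11.5 and 202 CPM in DSS libraries, against 0.557, 0.715 and 0.697 CPM in control libraries. The control values rest on 11 to 13 estimated counts a library, against 3265, 202 and 3556 in DSS libraries. Its folds within mice were 334, 16.0 and 290.4, and over the groups 7023 counts in DSS libraries stood against 36 in control libraries, a ratio per unit of library size of 205 (95% exact interval 148 to 293, counting error only). The fitted log2 fold change was 7.67 ± 1.23 (SE), and DSS libraries varied 17.7-fold among themselves. With curated transcripts alone it was 8.33 ± 1.45 (SE).

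Gbp6 (100702, chr5:105270702-105295871) and Gbp9 (236573, chr5:105076464-105110357) encode proteins that gather at Toxoplasma vacuoles in mouse cells. Gbp6 held 295, 41.2 and 346 CPM in DSS libraries, against 6.35, 7.48 and 8.17 CPM in control libraries. Gbp9 held 226, 34.4 and 258 CPM in DSS libraries, against 11.6, 11.9 and 14.3 CPM in control libraries. Their fitted log2 fold changes were 4.96 ± 0.76 and 3.77 ± 0.68 (SE), and for both genes the control libraries lay within 1.29-fold of each other. With curated transcripts alone the fitted value of Gbp6 was 6.00 ± 0.98 (SE).

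Gbp8 and Gbp10 were the low members. Gbp8 (76074, chr5:105012513-105053609) held 23.2, 4.75 and 20.1 CPM in DSS libraries, against 1.89, 1.92 and 1.38 CPM in control libraries, with a fitted log2 fold change of 3.21 ± 0.58 (SE). Gbp10 (626578, chr5:105215699-105239533) held 305, 6.17 and 213 estimated counts in DSS libraries, against 1.56, 0 and 1.64 in control libraries. In CPM this was 17.4, 0.350 and 12.1 in DSS libraries, against 0.0791, 0 and 0.0942 in control libraries. Over the groups 525 counts of Gbp10 stood against 3, a ratio of 184 with a 95% exact interval of 62.6 to 895 that covers counting error only. The DSS library of mouse 1717, with 6.17 estimated counts, was nearer to the controls than to the other DSS libraries.

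Outside the 9 genes, the pseudogene Gbp11 held 45.1, 6.01 and 54.4 estimated counts in DSS libraries, against 1, 1 and 2.05 in control libraries. Its 106 counts in DSS libraries against 4 in control libraries gave a ratio of 27.9 (95% exact interval 10.6 to 104). Gbp2b, the neighbour of Gbp2, held 2, 0 and 1 counts in DSS libraries and 0 in each control library, which is too few for a fold. Neither gene passed the filter. So of the 11 family genes listed, Gbp2b was the 1 with next to no counts in either group.

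Levels were compared between genes per kilobase, with the length of the longest GENCODE transcript paired with a RefSeq transcript of the gene. Gbp2 was first in all 6 libraries, at 275 ± 205 CPM per kb in DSS libraries and 12.7 ± 1.08 in control libraries (SD, n = 3 each). In DSS libraries the mean order then ran Gbp6 (87.4 CPM per kb), Gbp5 (60.6), Gbp3 (50.5), Gbp7 (44.8), Gbp9 (39.4), Gbp4 (29.4), Gbp8 (6.52) and Gbp10 (2.83). The DSS means of neighbours in this order lay within the larger SD of each pair throughout, since the DSS libraries spread widely. That SD is a spread between mice and does not measure how sure the order within a library is. Gbp3 stood at rank 2 in mouse 1717 and rank 4 in mice 1716 and 1718. Gbp4, Gbp8 and Gbp10 held ranks 7, 8 and 9 in each DSS library. In control libraries Gbp7 (4.95 CPM per kb) and Gbp3 (4.36) came after Gbp2, and changed places in mouse 1718. Gbp9 (2.88), Gbp6 (2.82) and Gbp5 (2.21) followed, then Gbp8 (0.703), Gbp4 (0.145) and Gbp10 (0.0164). Control means lay further apart than the larger SD of the pair between Gbp2 and Gbp7 and between Gbp6 and Gbp5. The same held between all neighbours from Gbp5 on. Gbp4 was thus above Gbp8 in each DSS library and below it in each control library.

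The members' shares of the summed family CPM show the same differences on 1 scale. Gbp2 made up 43.6, 37.4 and 31.2% in DSS libraries, against 33.7, 30.5 and 31.4% in control libraries, and these ranges overlap. Gbp7 made up 13.1, 19.3 and 13.6% in DSS libraries, against 28.4, 28.6 and 26.1% in control libraries, with no overlap. Gbp4 made up 6.82, 2.67 and 8.77% in DSS libraries, against 0.589, 0.741 and 0.628% in control libraries. Thus Gbp7 held a smaller share and Gbp4 a larger share of the family in each DSS library than in any control library.

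Gbp5 averaged 10.5 ± 1.34% in DSS libraries and 6.78 ± 0.984% in control libraries (SD, n = 3 each). Gbp6 averaged 11.8 ± 2.84% in DSS libraries and 7.28 ± 0.527% in control libraries. Both were higher in each DSS library than in any control library. Gbp9 averaged 9.15 ± 1.77% in DSS libraries and 12.5 ± 0.339% in control libraries, and Gbp8 0.944 ± 0.143% and 1.74 ± 0.436%, both lower in each DSS library. Gbp3, at 8.31 ± 1.97% in DSS libraries and 11.4 ± 2.98% in control libraries, overlapped between the groups. The share of Gbp10 was 0.638, 0.0816 and 0.527% in DSS libraries, against 0.0836, 0 and 0.0849% in control libraries, so that the DSS library of mouse 1717 lay among the controls.

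By cluster, the 4 chromosome 3 members summed to 1985, 337 and 1468 CPM in DSS libraries, against 74.1, 74.4 and 86.3 CPM in control libraries. The 5 chromosome 5 members summed to 748, 92.1 and 839 CPM in DSS libraries, against 20.5, 22.0 and 24.6 CPM in control libraries. The mean log2 difference within mice was 3.67 ± 1.33 for chromosome 3 and 4.12 ± 1.78 for chromosome 5 (SD, n = 3 mice). In mouse 1717 the folds were 4.53 and 4.18, in mouse 1716 26.8 and 36.5, and in mouse 1718 17.0 and 34.0, for chromosome 3 and chromosome 5 in that order. The chromosome 5 genes were therefore the further apart between DSS and control in mice 1716 and 1718, and not in mouse 1717.

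Mouse 1717 had the smallest difference for each of the 9 members. On the log2(CPM + 0.5) scale, which understates the change of low genes, the members' median difference was 4.95 in mouse 1716, 2.02 in mouse 1717 and 4.35 in mouse 1718. Among the 1457 other genes called higher in DSS, 514 (35.3%) had their smallest difference in mouse 1717, and the medians were 0.65, 0.68 and 0.77 in mice 1716, 1717 and 1718. Among the 155 of these with a log2 fold change of at least 2, the number was 85 (54.8%), and the medians were 2.15, 1.96 and 2.39. Genes that share a response are not independent, so these shares are a description. The 3 control libraries of the family lay between 94.6 and 110.9 CPM, so the mice differed mainly in their DSS libraries.

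**Figure D2:**
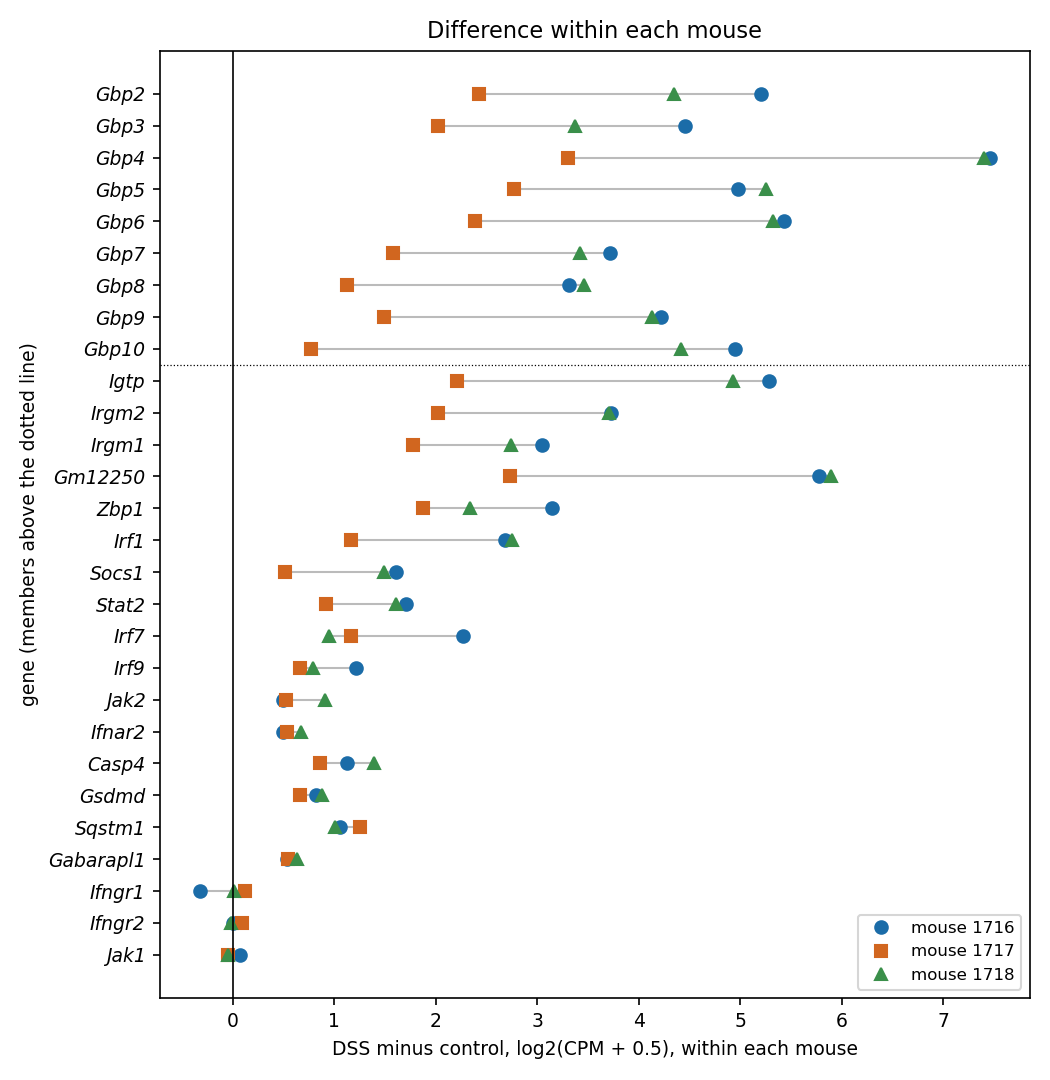
DSS minus control in log2(CPM + 0.5) within each mouse, for the 9 members (above the dotted line) and 19 genes of the pathway (below it), with a grey line from the smallest to the largest difference. Mouse 1717 (squares) is the lowest for each member, while Sqstm1 has its highest value there and the receptor genes Ifngr1 and Ifngr2 lie near 0.

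Counts of these genes rest on how reads of close copies were divided, so shared sequence was counted in words of 31 bases, the usual word length of pseudoalignment, over GENCODE transcripts of GRCm38. Of Gbp5's words 99.2% occurred in no other gene, and the shares were 95.1% for Gbp2, 94.3% for Gbp3, 85.3% for Gbp7, 78.8% for Gbp9, 78.6% for Gbp4 and 65.0% for Gbp8. Gbp6 and Gbp10 stood apart with 5.56 and 11.2%. Of Gbp10's words 78.9% also occurred in Gbp6, and the GENCODE gene Gm43302, not listed in the deposited table, held 93.9% of Gbp6's words and 84.2% of Gbp10's. The coding sequences of Gbp6 and Gbp10 were identical at 1803 of 1833 bases (98.4%), with an identical run of 421 bases. A stretch where they can be told apart, coding bases 1567 to 1626 of both, holds 9 differences, given in capitals (GENCODE transcripts, minus strand, chromosome 5).
Gbp6 coding bases: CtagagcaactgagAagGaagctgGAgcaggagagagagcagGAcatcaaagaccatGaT
Gbp10 coding bases: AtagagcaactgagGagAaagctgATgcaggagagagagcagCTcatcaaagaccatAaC

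The levels of Gbp6 and Gbp10 are each uncertain for this reason, and their sum and the cluster sum do not depend on the split between them. Both sums can still depend on words shared with genes outside them, such as Gm43302 and Gbp11, which held 14.2% of Gbp6's words. Among chromosome 5 members the other pairs had coding identities of 90.2% or more. On chromosome 3 identity was lower, at 82.5% between Gbp2 and Gbp2b, 79.3% between Gbp3 and Gbp7 and 71.2% between Gbp2 and Gbp5. Gbp2 and Gbp5, each with 1 transcript in the table and mostly unshared words, thus give the least ambiguous values of the family. The 6 values of Gbp2 were whole counts at a tolerance of 1e-06, while no value of Gbp5 was.

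**Figure D3:**
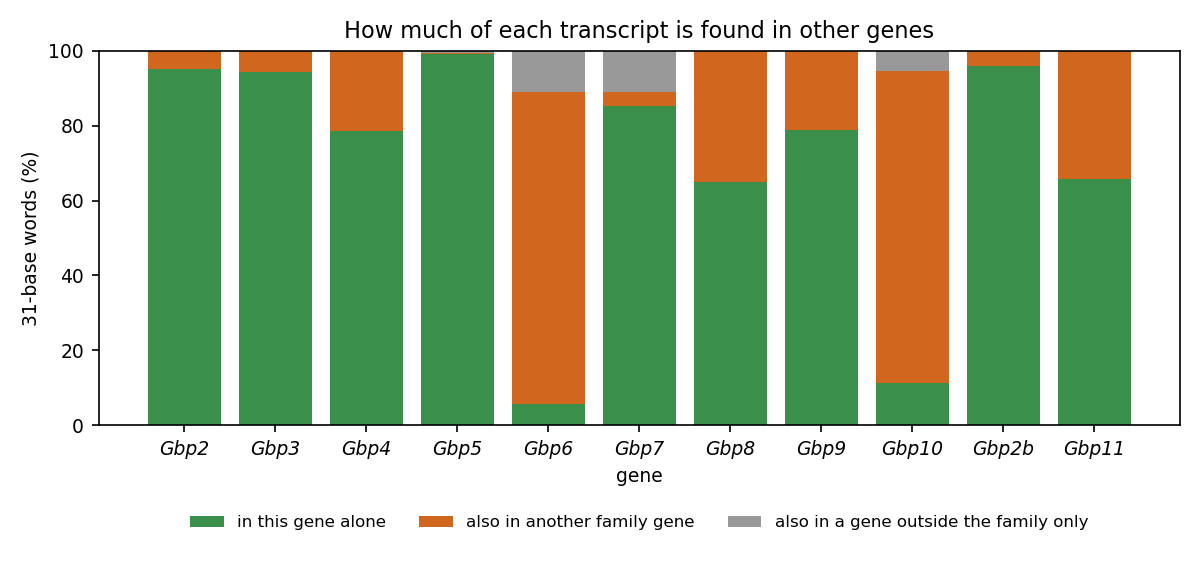
Share (%) of 31-base words of each family gene found in that gene alone (green), in another of the 11 family genes (orange) or only in some gene outside them (grey). Gbp6 and Gbp10 have 5.56 and 11.2% of words of their own, against 65.0 to 99.2% for the other members.

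By transcript, the members had 42 entries in the table, all matched to RefSeq. Gbp6 had 7, of which the leading one took 81.5, 66.2 and 78.7% of the gene's counts in DSS libraries, against 26.9, 43.3 and 46.2% in control libraries. The leading transcript of Gbp7 took 90.9, 97.9 and 94.0% of 2 in DSS libraries, against 100, 100 and 89.7% in control libraries. That of Gbp9 took 70.6, 73.1 and 76.2% in DSS libraries, against 100, 78.5 and 70.9% in control libraries. For Gbp3, with 6 entries, it took 53.9, 25.8 and 53.0% in DSS libraries, against 37.4, 50.2 and 33.2% in control libraries. Gbp6 was therefore the member of these 4 in which the leading transcript had a larger share in each DSS library than in any control library. Since DSS counts picked the transcript, this is a description only.

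For Gbp4 and Gbp8 the transcripts that took the counts differed between the groups, and also between the control libraries. The leading transcript of Gbp4, 1 of 11, took 35.0, 12.3 and 32.3% of counts in DSS libraries and less than 1 count in each control library. The 11 to 13 control counts lay instead on other transcripts of the gene, and a different one led in each control library. So few counts do not show a difference in transcript use. The leading transcript of Gbp8, 1 of 8 and the single curated one, held 250.3, 24.4 and 232 counts in DSS libraries and 0 in each control library. With 3 counts set for each control library, it was 93.9-fold, 8.43-fold and 76.9-fold higher in DSS libraries of mice 1716, 1717 and 1718. These are not lower bounds, since the zeros rest on how reads were divided among transcripts of the gene. Over the summed gene the folds were 12.3, 2.48 and 14.6. The control counts of Gbp8 lay on predicted transcripts, and a different one led in each control library. The fold of the summed gene thus depends on those counts. Fitted log2 fold changes of the leading transcripts alone, 12.63 for Gbp4 and 10.44 for Gbp8, depend on the prior count where controls are at or near 0 and do not measure a fold. GENCODE models of Gbp8 and Gbp9 also extend over Gbp4.

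Of the pathway that acts upstream, 5 of 13 tested genes of interferon-gamma signalling were higher in DSS and the other 8 did not pass the test (edgeR, adjusted p under 0.05). The list's median log2 fold change was 0.30, against 0.0099 over all genes tested. Of all genes tested, 7.37% were called higher and 5.91% lower. Irf1, a transcription factor gene of the pathway, held 255, 78.9 and 241 CPM in DSS libraries, against 39.4, 34.9 and 35.3 CPM in control libraries (log2 fold change 2.39 ± 0.40, edgeR adjusted p = 0.00929). The groups did not overlap and mouse 1717 had the lowest DSS value, as in the family.

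The kinase gene Jak2 rose by 0.65 ± 0.11 on the log2 scale (edgeR adjusted p = 0.00874), with 146, 159 and 193 CPM in DSS libraries, against 104, 111 and 103 CPM in control libraries. Irf2, a relative of Irf1, rose by 0.44 ± 0.08 (edgeR adjusted p = 0.0114) and Stat3 by 0.32 ± 0.07 (edgeR adjusted p = 0.0257). Socs1, the feedback inhibitor of the kinases, held 21.6, 8.51 and 21.6 CPM in DSS libraries, against 6.74, 5.81 and 7.39 CPM in control libraries (1.37 ± 0.34, edgeR adjusted p = 0.037). Calls were also read in 9 fits without 1 library or 1 mouse, which had fewer libraries and did not use the pairing. In these fits Jak2 lost its call without mouse 1717 or 1718, and Irf1 without mouse 1716 or 1718 (edgeR adjusted p of 0.0574 to 0.0996). Irf2 lost it in 3 of 9 such fits, Socs1 in 7 and Stat3 in 8 (adjusted p of 0.0531 to 0.191). Without mouse 1718 none of the 5 passed in edgeR, and 6 genes of the list were higher at an unadjusted p under 0.05. Irf2 also lost its call with curated transcripts alone (edgeR adjusted p = 0.443), Irf2 and Stat3 with the most abundant transcript alone (0.575 and 0.244), and Socs1 under both and in limma-voom (0.0611 to 0.0852). The list had 3 genes called with curated transcripts and 2 with the most abundant one. With the mouse as a block in edgeR 7 were higher, with Irf8 and Socs3 gained (adjusted p = 0.0232 and 0.00617), and Ptpn11 was lower (adjusted p = 0.0435).

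The receptor chains did not pass the test. Ifngr1 held 53.4, 59.1 and 52.0 CPM in DSS libraries, against 67.2, 54.2 and 51.4 CPM in control libraries, and Ifngr2 80.1, 97.0 and 86.9 CPM in DSS libraries, against 79.8, 91.4 and 87.9 CPM. Jak1, the receptors' other kinase, held 272, 260 and 269.8 CPM in DSS libraries, against 259, 269 and 279 CPM. For all 3 genes the groups overlapped. Transcripts of the ligand were next to absent, with 7, 1 and 0 counts of Ifng in DSS libraries and 0 in each control library, which allows up to 3 counts in a library.

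In the type I interferon list, 5 of 9 tested genes were higher in DSS and 4 did not pass. The median log2 fold change was 0.89, and 7.37% of all genes tested were higher. Ifnar2, a receptor chain, rose by 0.57 ± 0.07 (edgeR adjusted p = 0.00306) and its kinase gene Tyk2 by 0.41 ± 0.08 (edgeR adjusted p = 0.0181). Stat2 and Irf9, parts of the complex that binds the ISRE, rose by 1.46 ± 0.22 and 0.89 ± 0.14 (edgeR adjusted p = 0.00625 and 0.00748). Irf7 rose by 1.40 ± 0.26 (edgeR adjusted p = 0.0128). Leaving out a mouse ended the call of Ifnar2 and Irf9 (mouse 1717), Stat2 (mouse 1716) and Irf7 (mouse 1717 or 1718), at adjusted p of 0.0505 to 0.112, and Tyk2 lost it in 5 of 9 fits (adjusted p of 0.0542 to 0.142). Irf9 lost it with the most abundant transcript alone (edgeR adjusted p = 0.718) and Tyk2 with curated transcripts alone (0.0957). With the mouse as a block in edgeR 7 of 9 were higher, with Isg15 and Usp18 gained (adjusted p = 0.00659 and 0.0200). Ifna4 had 0 counts in every library, and Ifnb1 1 count in the DSS library of mouse 1718 and 0 in the others.

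Among the genes that guide the family to vacuoles, 7 of 17 were higher in DSS and 10 did not pass. Their median log2 fold change was 0.11, and 7.37% of all genes tested were higher. The regulatory immunity-related GTPases made up 3 of the 7. Irgm1 held 388, 173 and 445 CPM in DSS libraries, against 46.7, 50.2 and 66.4 CPM in control libraries (2.63 ± 0.34, edgeR adjusted p = 0.00392). Irgm2 held 239.6, 79.7 and 290.5 CPM in DSS libraries, against 17.6, 19.3 and 21.9 CPM in control libraries (3.38 ± 0.45, edgeR adjusted p = 0.0041). Igtp, the third of them, rose by 4.75 ± 0.79 (edgeR adjusted p = 0.00896). Irgm1 and Irgm2 kept their calls in all 9 leave-out fits, and Igtp lost its call without mouse 1716 or 1718 (adjusted p of 0.0653 and 0.0835).

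The ATG8 and autophagy genes of that list moved less. Sqstm1, an autophagy receptor, rose by 1.11 ± 0.15 (edgeR adjusted p = 0.00483), with 479, 679.7 and 612 CPM in DSS libraries, against 229, 285 and 305 CPM in control libraries. Mouse 1717 thus had the highest DSS value of Sqstm1. Gabarapl1, an ATG8 protein gene, rose by 0.57 ± 0.07 (edgeR adjusted p = 0.00296) and Atg7, of the conjugation machinery, by 0.45 ± 0.08 (edgeR adjusted p = 0.00939). Gabarapl1 lost its call without mouse 1718, and Sqstm1 and Atg7 without mouse 1717 or 1718 (adjusted p of 0.0529 to 0.109). Atg7 also lost it with the most abundant transcript alone (edgeR adjusted p = 0.157). The seventh gene was Trim21, a ubiquitin ligase gene outside the rule for names, at 1.51 ± 0.33 (edgeR adjusted p = 0.0231).

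Of the inflammasome and pyroptosis genes known to act with the family, 6 of 13 were higher in DSS and 7 did not pass. Their median log2 fold change was 0.46, and 7.37% of all genes tested were higher. Casp4, the mouse caspase that senses lipopolysaccharide, held 57.1, 44.8 and 50.4 CPM in DSS libraries, against 25.9, 24.5 and 18.9 CPM in control libraries (1.13 ± 0.14, edgeR adjusted p = 0.00319). Gsdmd, which encodes the pore-forming gasdermin D, held 61.6, 50.3 and 69.8 CPM in DSS libraries, against 34.6, 31.6 and 37.8 CPM in control libraries (0.81 ± 0.13, edgeR adjusted p = 0.00783). Zbp1, a nucleic acid sensor gene, rose by 2.53 ± 0.33 (edgeR adjusted p = 0.00405).

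Gm12250, known as Irgb10, which acts with the family on bacterial membranes in mouse cells, rose by 6.16 ± 1.02 (edgeR adjusted p = 0.00882). It held 72.2, 6.53 and 73.4 CPM in DSS libraries, against 0.824, 0.555 and 0.745 CPM in control libraries. Casp1 rose by 1.11 ± 0.21 and Ninj1, which ruptures membranes at the end of pyroptosis, by 0.62 ± 0.12 (edgeR adjusted p = 0.0141 and 0.0176). Casp4 and Zbp1 kept their calls in all 9 leave-out fits. Gsdmd lost its call without mouse 1716, Gm12250 without mouse 1716 or 1718, Ninj1 without mouse 1716 or 1717, and Casp1 in 5 of 9 fits (adjusted p of 0.0502 to 0.107). Gm12250 also lost it in limma-voom (adjusted p = 0.171) and Ninj1 with the most abundant transcript alone (edgeR adjusted p = 0.0506). With the mouse as a block in edgeR 7 of 13 were higher, with Nlrp3 gained (adjusted p = 0.00384).

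The genes of prenylation and CaaX processing had a median log2 fold change of -0.13. Of all genes tested, 5.91% were lower in DSS. In this list 1 of 8 was lower and 7 did not pass. That gene was Zmpste24, a CaaX protease gene, at -0.29 ± 0.06 (edgeR adjusted p = 0.0212), with 58.8, 61.8 and 62.6 CPM in DSS libraries, against 76.4, 72.6 and 74.6 CPM in control libraries. Its call was lost in 8 of 9 leave-out fits (adjusted p of 0.0511 to 0.145), with curated transcripts alone (0.0543) and with the most abundant one alone (0.0692). Of the atlastins, relatives of the family that shape the endoplasmic reticulum, Atl1, Atl2 and Atl3 were tested and none passed (edgeR, 0 with an unadjusted p under 0.05, and 0 of 3 by DESeq2 and limma-voom).

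The 6 protein-coding genes with the profile most like the summed family over the 6 libraries were Batf2, Igtp, Gm4841, Gm4951, Irgm2 and Cxcl10, among 11396 candidates with a mean of at least 5 CPM. Likeness was the root mean square distance between centred log2(CPM + 0.5) profiles, and these genes lay at 0.225, 0.292, 0.435, 0.436, 0.449 and 0.451. Within the family the distance ran from 0.178 for Gbp2 to 1.24 for Gbp4. Batf2 held 31.6, 4.14 and 35.6 CPM in DSS libraries, against 0.405, 0.767 and 0.917 CPM in control libraries. Cxcl10, a chemokine gene, held 219.7, 20.3 and 243 CPM in DSS libraries, against 4.61, 5.26 and 4.18 CPM in control libraries. Both were lowest in mouse 1717 among DSS libraries, the pattern by which they were chosen.

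Libraries held 17293680 to 17931239 estimated counts in DSS and 17734405 to 19482938 in control. Fibroblast markers summed to 20128 to 24719 CPM in DSS libraries and 37349 to 44061 CPM in control libraries, with 1 of 9 higher (Pdgfra) and 5 lower. Macrophage markers, which were also present, summed to 1346, 2110 and 1287 CPM in DSS libraries of mice 1716, 1717 and 1718, against 2004, 2888 and 2501 CPM in control libraries, with 1 of 10 higher (Cd68) and 3 lower. Dendritic cell markers summed to 28.4 to 31.9 CPM in DSS libraries and 18.9 to 20.02 CPM in control libraries, with Itgax higher and Cd209a at 0. T and NK cell markers summed to 2.57 to 3.02 CPM in DSS libraries and 2.31 to 3.38 CPM in control libraries, with Cd3g and Ncr1 at 0. Epithelial markers summed to 3.24 to 5.04 CPM in DSS libraries and 9.27 to 14.0 CPM in control libraries. Muc2 made up most of the control sum and was called lower (2.12 ± 0.569 CPM in DSS libraries and 9.17 ± 2.13 in control libraries). Vil1 was higher in each DSS library than in any control library, and the other epithelial markers overlapped. Glial markers summed to 59.4 to 261 CPM in DSS libraries and 95.8 to 323 CPM in control libraries. B cell markers stayed under 1 CPM in each library, endothelial markers summed to 13.5 to 18.8 CPM in DSS libraries and 16.6 to 23.6 CPM in control libraries, and smooth muscle and interstitial cell markers to 491 to 581 CPM and 399 to 449 CPM. Myh11 made up most of this last sum and was higher in DSS (529 ± 48.4 CPM in DSS libraries and 392 ± 34.0 in control libraries), while Des, at 15.5 ± 6.90 CPM in DSS libraries and 28.9 ± 9.71 in control libraries, did not pass the test. Macrophage markers were highest in mouse 1717 among DSS libraries, where the family was lowest, and their part in the family's levels was not tested.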

How the data were processed

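Total RNA of 6 cultures went through ribosomal RNA removal and a directional library kit, per the labels' protocols. The authors deposited estimated counts per RefSeq transcript, unscaled. Per the submitters' processing notes they came from kallisto with GRCm38 and mm10, and the sources used here give neither its version nor its settings. The 120299 transcripts were summed by symbol and rounded. Genes kept by filterByExpr (minimum count 10, total 15) were scaled by TMM and fitted by quasi-likelihood in edgeR, with group as the only term. P-values were adjusted by Benjamini-Hochberg over all 19869 genes, at a threshold of 0.05. Leave-out fits also had group as the only term, so they did not use the pairing by mouse. CPM use the TMM library sizes. Intervals cover counting error only.

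Members and gene lists were chosen with earlier results of these data known, so nothing about them is independent support. Genes were named by rule: all members, Gbp2b, Gbp11, up to 6 called genes of each list by smallest p, 9 fixed genes of the pathway, and the 6 genes nearest in profile to the summed family. A further gene of the interferon-gamma list is not reported here and was left out of its list.

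Both cultures of a pair came from 1 mouse. Deviations from group means correlated across genes between libraries of the same mouse at r = 0.403, 0.247 and 0.517, against -0.408 to 0.016 for different mice. Versions were matplotlib 3.10.9, Biopython 1.88, numpy 2.4.6, pandas 2.3.3, Python 3.11.15, DESeq2 1.42.0, limma 3.58.1, edgeR 4.0.16 and R 4.3.3.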

Additional observations from a re-analysis of the deposited data

How the results depend on the processing

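Member calls follow from the choice of members. All 8 were called by DESeq2, with library totals in place of TMM and with curated transcripts only. limma-voom and the most abundant transcript alone each called 6, without Gbp4 and Gbp8, and no filter on low counts called 9, with Gbp10. Leaving out 1 library or mouse gave 0 to 9 members called, and the summed family's log2 difference ran from 3.27 to 4.62. It was 3.79 with DESeq2 size factors and 3.67 without Gbp2.

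With the replicate block, edgeR called 2447 genes higher and 2518 lower, against 1465 and 1174 without it, and 1 interferon-gamma signalling gene was lower. With the block in edgeR and in DESeq2, 7 interferon-gamma, 7 type I and 7 inflammasome genes were higher. Without it edgeR called 5, 5 and 6 of them higher, and DESeq2 6, 7 and 6. All 8 members were called with the block. Leave-out fits called 378 to 1310 genes higher and 185 to 1108 lower. They called 0 to 5 interferon-gamma, 1 to 6 type I, 2 to 7 vacuole and 2 to 6 inflammasome genes higher, and 0 to 1 prenylation genes lower. No filter called 1 other family gene (Gbp11) higher, as did leave-out fits (0 to 1). Jak1 changed sign with library totals (0.0066), curated transcripts (0.19) and the most abundant transcript (0.19). In leave-out fits the log2 fold change ran from -0.049 to 0.016 for Jak1, -0.050 to 0.090 for Ifngr2 and -0.17 to 0.072 for Ifngr1, with no call in any of these fits. The cause was not tested. Low control counts limit the folds of Gbp4, Gbp8 and Gbp10.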
